A study of Oryza sativa with 12 samples.

Results

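PHR1, PHR2, PHR3, PHO2 and PHF1 are regulators of the phosphate (Pi) starvation response of rice, and their transcripts were followed in roots of WT and of a strigolactone biosynthesis mutant. The genes were chosen by name and function, not by their values, although earlier results of these data were known. The 5 are among the 41620 genes in the authors' expression table. They are Os03g0329900 (PHR1), Os07g0438800 (PHR2), Os02g0139000 (PHR3), Os05g0557700 (PHO2, listed in the files as LEAF TIP NECROSIS 1) and Os07g0187700 (PHF1). All 5 have rows in both count tables, and all passed the filter on low counts in every comparison.

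The study grew rice (cv. Nipponbare) hydroponically for 2 wk with normal Pi (+Pi) or low Pi (low-Pi) and sequenced RNA of 3-wk-old roots. WT was compared with Os1400-12SIII (Os1400), a single CRISPR/Cas9 line in which the gene Os01g0701400 is disrupted, which encodes the cytochrome P450 that hydroxylates the strigolactone 4-deoxyorobanchol. The 4 groups, WT +Pi, Os1400 +Pi, WT low-Pi and Os1400 low-Pi, had 3 libraries each. The study calls the replicates of its transcriptome heat map biological, and whether each was a plant or a pool of plants is not stated in the labels.

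PHR proteins are transcription factors of the MYB-CC family, which bind a short palindromic element in the promoters of Pi starvation genes. When Pi is plentiful, proteins with an SPX domain bind PHR proteins and keep them from their targets. Among these targets are the genes of miR399, a microRNA that directs the cleavage of PHO2 transcripts. PHO2 is a ubiquitin-conjugating enzyme that, as shown mainly in Arabidopsis, leads Pi exporters and transporters to degradation, and rice plants without it accumulate Pi in their leaves. PHF1 is a protein of the endoplasmic reticulum that PHT1 transporters need to leave it for the plasma membrane.

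In the authors' coordinates, whose genome build is not given in the sources used here, PHR1 lies on the plus strand of chromosome 3 from 12126320 to 12131242. PHR2 lies on the plus strand of chromosome 7 from 14753753 to 14759288, and PHF1 on the same strand and chromosome from 4682480 to 4687646. PHR3 spans 2075629 to 2079136 of chromosome 2 and PHO2 27740218 to 27749525 of chromosome 5, both on the minus strand. All 5 are annotated as protein-coding, and the descriptions give PHR1, PHR2 and PHR3 both a Myb-like DNA-binding domain and a MYB-CC domain. The gene lengths by which the authors divided the fragments were 1989 bases for PHR1, 1874 for PHR2, 1856 for PHR3, 4262 for PHO2 and 1778 for PHF1. PHR3 shares 45 bases with Os02g0138900, a vacuolar cation/proton exchanger gene on the opposite strand. Whether the counting used the strand is not stated, so reads in those bases cannot be assigned to 1 of the genes, and the values of PHR3 are uncertain to that extent. No other member overlaps an annotated gene.

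The libraries held 28271749 to 41078078 counts, and the 3 WT low-Pi libraries stood apart from the other 9. They had a count for 17711 to 22077 genes, whereas the others had one for 27191 to 30375. Genes at 0 in 1 library with at least 100 counts in both other libraries of the group numbered 1075, 334 and 197 in WT low-Pi libraries 1, 2 and 3, and 0 to 4 elsewhere. PHR3 in WT low-Pi library 2 is such a gene. The part of these missing genes in the results was not tested. Some test results of the regulators that rest on these libraries are given below also with a library left out. The results of the gene lists, the ratios, the shares and the correlations are given with all libraries only. RCc3, a root-specific gene, was at 870 to 2889 FPKM in all libraries, while RBCS, the small subunit of Rubisco, was at 2.72 FPKM or less and 2 chlorophyll a/b-binding protein genes at 7.81 or less. The disrupted gene itself (Os01g0701400) is listed at 0 FPKM in all 12 libraries and therefore gives no check of the genotype labels.

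In roots with normal Pi, PHO2 was the most abundant of the 5 transcripts, PHR2, PHF1 and PHR1 lay close together, and PHR3 was the lowest. Levels are given in FPKM, the fragments per kilobase of gene and per unit of library size, as the authors deposited them. In WT +Pi, PHO2 was at 155 ± 13.0 FPKM (SD, n = 3), PHR2 at 37.6 ± 2.41, PHF1 at 36.5 ± 0.509, PHR1 at 30.9 ± 3.50 and PHR3 at 6.02 ± 0.933. In Os1400 +Pi, the levels were 146 ± 5.86 FPKM for PHO2, 39.4 ± 2.29 for PHR2, 38.1 ± 2.62 for PHF1, 32.3 ± 2.87 for PHR1 and 6.96 ± 0.668 for PHR3. PHO2 was first and PHR3 last in all 6 +Pi libraries, and PHR1 was the fourth in each. PHR2 and PHF1 changed places between libraries, and their difference was within the spread. PHO2 made up 54.2 to 59.5% of the summed FPKM of the 5 genes in these libraries.

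**Figure D1:**
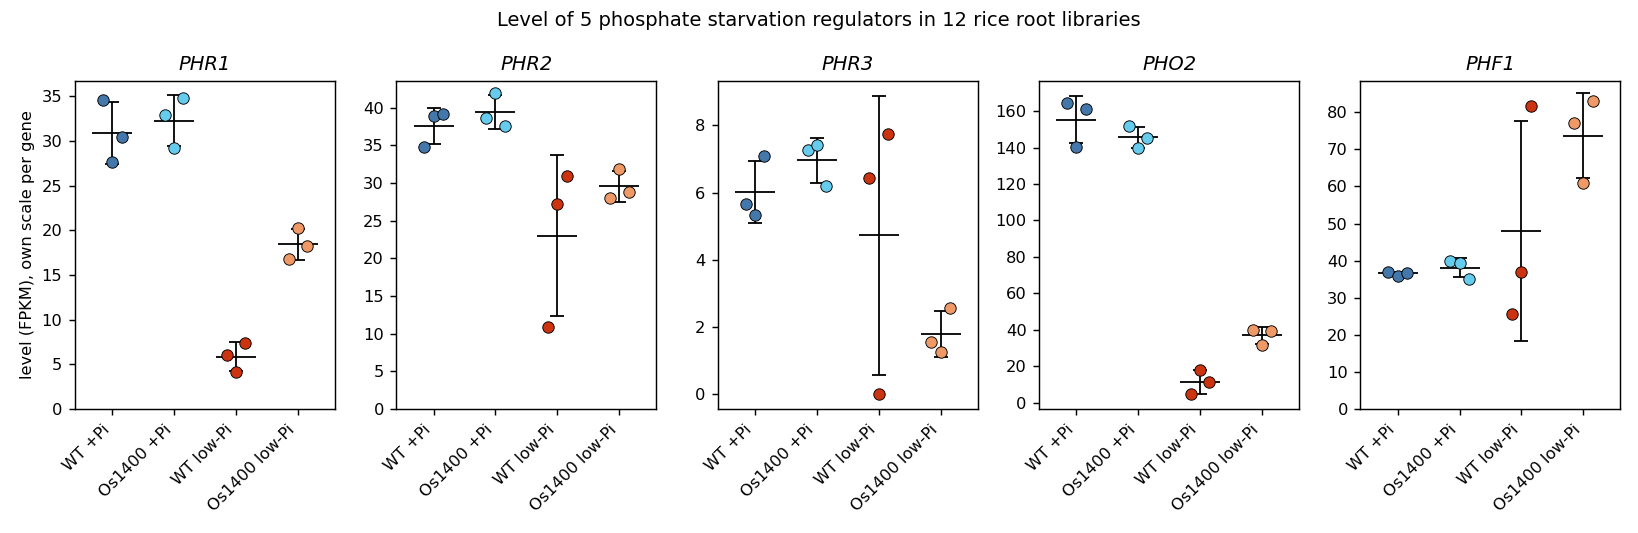
Level of each gene in FPKM (vertical axis, a scale of its own for each gene) in the 12 libraries, by group. Points are libraries, the horizontal line is the mean of 3 libraries and the bars are 1 SD. PHO2 falls from 140 to 164 FPKM in WT +Pi to 4.74 to 18.2 in WT low-Pi, and the points of WT low-Pi spread widely relative to their mean for PHR2, PHR3, PHO2 and PHF1.

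At low Pi, the order changed and PHF1 became the most abundant of the 5 in all 6 libraries. In WT low-Pi, the mean level was 48.1 ± 29.7 FPKM for PHF1, 23.0 ± 10.7 for PHR2, 11.4 ± 6.74 for PHO2, 5.84 ± 1.64 for PHR1 and 4.73 ± 4.15 for PHR3. PHO2, PHR1 and PHR3 took different places among the last 3 in the 3 WT libraries, and their ranges overlapped, as did those of PHF1 and PHR2. In Os1400 low-Pi, PHF1 was at 73.7 ± 11.4 FPKM, PHO2 at 36.9 ± 4.46, PHR2 at 29.6 ± 2.04, PHR1 at 18.4 ± 1.74 and PHR3 at 1.79 ± 0.683. PHO2 and PHR2 changed places among the Os1400 low-Pi libraries. The share of PHO2 in the summed FPKM of the 5 genes was 8.18 to 24.4% at low Pi, and that of PHF1 was 41.7 to 58.7%. The order of the group means was the same when FPKM were computed anew from TMM-scaled counts.

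The first comparison asked whether the loss of this P450 was accompanied by other levels of these regulators when Pi was plentiful. No difference was detected for any of the 5 genes. PHR1 was at 34.6, 27.6 and 30.5 FPKM in the WT +Pi libraries and at 32.9, 29.2 and 34.8 in Os1400 +Pi. PHO2 was at 164, 140 and 161 FPKM in WT and at 152, 140 and 145 in Os1400. The groups overlapped for both. PHR2 ranged from 34.8 to 39.1 FPKM in WT and from 37.6 to 42.0 in Os1400, PHR3 from 5.32 to 7.08 and from 6.19 to 7.43, and PHF1 from 36.0 to 37.0 and from 35.1 to 39.8. With edgeR's quasi-likelihood test and Benjamini-Hochberg adjustment, where a gene was called at an FDR of at most 0.05, 0 of 5 members were called, against 0.958% of the 27777 genes tested. None of the 5 had an unadjusted p of 0.05 or less, which 2797 genes had, and DESeq2 also called 0 of them. The log2 differences of Os1400 against WT were −0.12 ± 0.09 (SE) for PHO2, 0.04 ± 0.12 for PHR1, 0.04 ± 0.11 for PHR2, 0.04 ± 0.11 for PHF1 and 0.19 ± 0.20 for PHR3, with edgeR adjusted p between 0.77 and 0.961. The FPKM of the genotypes overlapped for all 5, while they did not overlap for 16.8% of the genes tested.

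The response to low Pi in WT was the second comparison. PHO2 and PHR1 fell, whereas PHR2, PHR3 and PHF1 gave no call. PHO2 dropped from 164, 140 and 161 FPKM at +Pi to 4.74, 18.2 and 11.4 at low Pi, and PHR1 from 34.6, 27.6 and 30.5 FPKM to 6.07, 4.11 and 7.35. For both genes, every low-Pi library lay below every +Pi library. The log2 fold change of low-Pi against +Pi was −3.79 ± 0.52 (SE) for PHO2 (edgeR adjusted p = 0.00839) and −2.45 ± 0.27 for PHR1 (edgeR adjusted p = 0.00478). On the FPKM scale, the low-Pi mean of PHO2 was 7.37% of its +Pi mean and that of PHR1 was 18.9%. In bulk roots, fewer cells of a type and less RNA per cell cannot be told apart.

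These calls covered 2 of 5 members, against 23.7% of the 25163 genes tested, and both were lower, as were 15.2% of all genes tested (8.46% were higher). With each of the 6 WT libraries left out in turn, the log2 fold change ranged from −4.35 to −3.42 for PHO2 and from −2.67 to −2.29 for PHR1, and both remained called each time, with edgeR adjusted p up to 0.047. The median log2 fold change of the members was −0.75, against −0.28 for all genes tested. The last value depended on the scaling and was −0.49 with library totals only. The 2 called genes lay beyond these medians under every scaling tried.

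All 5 genes varied more among the WT low-Pi libraries, relative to their mean, than within any other group. The coefficient of variation there was 28.0% for PHR1, 46.5% for PHR2, 58.9% for PHO2, 61.7% for PHF1 and 87.7% for PHR3, against 1.39 to 38.2% in the other groups. PHR2 was at 10.8, 27.3 and 30.9 FPKM, all below the +Pi range of 34.8 to 39.1, and its log2 fold change of −0.75 ± 0.39 did not pass the test (edgeR adjusted p = 0.258). PHF1 was at 25.5, 37.0 and 81.7 FPKM, around a +Pi range of 36.0 to 37.0, and its log2 fold change was 0.35 ± 0.42 (edgeR adjusted p = 0.661). Without library 3, the one with the high value, that change was −0.28 (edgeR adjusted p = 0.411). PHR3 was at 6.43, 0 and 7.76 FPKM, from 341, 0 and 324 counts. The libraries with counts thus lay close to the +Pi range of 5.32 to 7.08 FPKM, and library 2 had none. The log2 fold change of PHR3 was −0.41 ± 1.60 (edgeR adjusted p = 0.907), and it was 0.15 without library 2 (edgeR adjusted p = 0.803). The FPKM at low Pi and +Pi did not overlap for PHR1, PHR2 and PHO2, 3 of 5 members, against 48.5% of the genes tested.

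In Os1400, low Pi was accompanied by calls for 4 of the 5 genes. PHO2, PHR3 and PHR1 fell and PHF1 rose. PHO2 went from 152, 140 and 145 FPKM to 39.8, 31.8 and 39.2, with a log2 fold change of −1.88 ± 0.13 (edgeR adjusted p = 1.04e-05). PHR3 went from 7.26, 7.43 and 6.19 FPKM to 1.55, 1.25 and 2.56, from 92, 85 and 146 counts at low Pi, with a log2 fold change of −1.87 ± 0.29 (edgeR adjusted p = 0.00115). All low-Pi libraries of this line lay below its +Pi libraries for both genes.

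PHR1 went from 32.9, 29.2 and 34.8 FPKM to 16.8, 20.2 and 18.3, with a log2 fold change of −0.71 ± 0.14 (edgeR adjusted p = 0.00349). PHF1 went from 39.8, 39.5 and 35.1 FPKM to 77.1, 61.0 and 83.0, with a log2 fold change of 1.05 ± 0.14 (edgeR adjusted p = 0.000442). PHR2 went from 38.6, 42.0 and 37.6 FPKM to 28.0, 31.9 and 28.8. This change, −0.31 ± 0.12 on the log2 scale, had an unadjusted p of 0.0265 and an edgeR adjusted p of 0.0777, and was not called. Os02g0138900, which shares bases with PHR3, was at 0.596 to 2.51 FPKM in Os1400 +Pi and 2.22 to 4.17 in Os1400 low-Pi. In WT, this gene was at 0.861 to 0.968 FPKM at +Pi and at 0 to 7.48 at low Pi.

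The calls in Os1400 compare with 29.6% of the 27647 genes tested, of which 14.0% of those tested were lower and 15.6% higher. The FPKM of the Pi supplies did not overlap for 5 of 5 members in this line, against 47.0% of the genes tested. With each Os1400 library left out in turn, the 4 calls remained, and PHR2 was called in 1 of the 6 cases. In 1 fit of all 12 libraries, which share an estimate of the spread, PHO2 alone remained called, and the edgeR adjusted p was 0.0525 for PHR1, 0.0718 for PHF1 and 0.493 for PHR3. The median log2 fold change was −0.71 for the members and −0.00 for all genes tested.

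**Figure D2:**
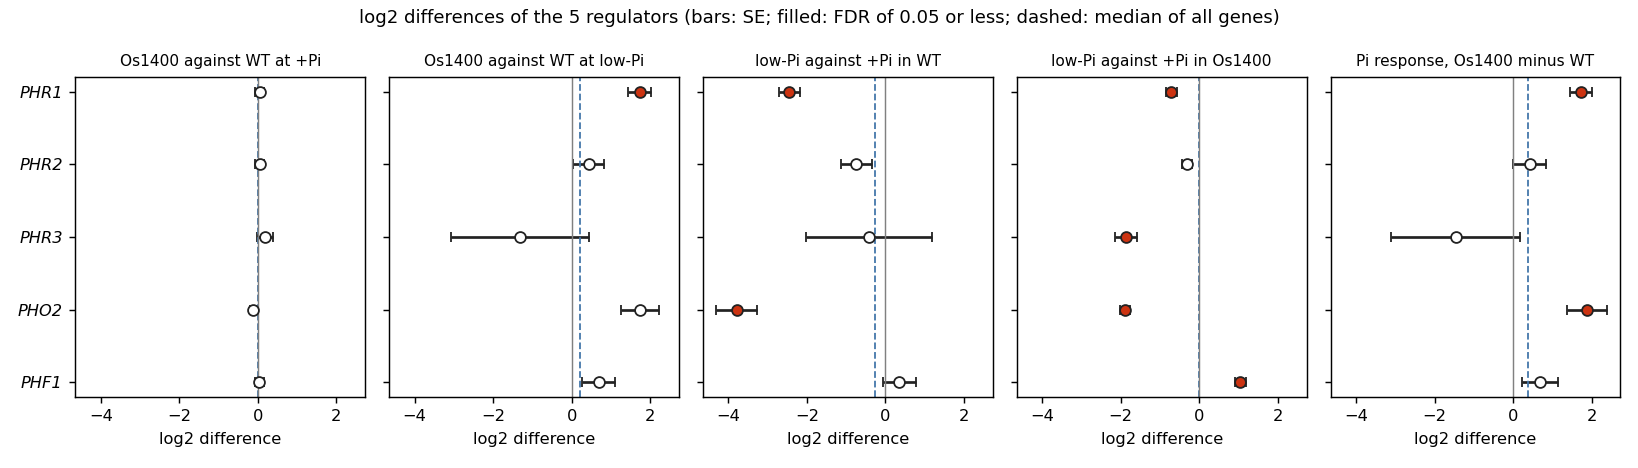
log2 differences (horizontal axis) of the 5 genes in the 5 comparisons, with bars of 1 SE. Filled points had an FDR of 0.05 or less and the dashed line is the median of all genes tested. At +Pi all points lie between −0.12 and 0.19, while PHO2 and PHR1 lie at −3.79 and −2.45 for the Pi response in WT and at −1.88 and −0.71 in Os1400.

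The genotypes were next compared at low Pi. PHR1 was higher in Os1400 than in WT, and PHO2 had a similar difference that missed the threshold. PHR1 was at 6.07, 4.11 and 7.35 FPKM in WT low-Pi and at 16.8, 20.2 and 18.3 in Os1400 low-Pi, 3.15 times as high on average, with no overlap. Its log2 difference was 1.73 ± 0.30 (edgeR adjusted p = 0.0184). PHO2 was at 4.74, 18.2 and 11.4 FPKM in WT and at 39.8, 31.8 and 39.2 in Os1400, 3.22 times as high on average, also with no overlap. Its log2 difference was 1.74 ± 0.48 (edgeR adjusted p = 0.0575), and DESeq2 called it (DESeq2 adjusted p = 0.00578).

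These 2 genes are the members whose groups did not overlap at low Pi, as was the case for 40.6% of the genes tested. The single call among 5 members compares with 16.9% of the 25426 genes tested, and with 12.4% that were higher in Os1400. Of all called genes, 73.6% were higher in Os1400 with TMM scaling and 84.1% with library totals only. The median log2 difference was 0.69 for the members, against 0.22 for all genes tested with TMM scaling and 0.48 with library totals only, and PHR1 and PHO2 lay above these medians under every scaling tried.

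The call of PHR1 was kept without each WT low-Pi library (edgeR adjusted p of 0.0228 to 0.0383) and lost without each Os1400 low-Pi library, when the log2 difference was 1.64 to 1.80 (edgeR adjusted p of 0.0606 to 0.0624). PHO2 was called without WT low-Pi library 1 or 2 (log2 differences of 1.37 and 2.31, edgeR adjusted p = 0.0386 and 0.0274) and not without library 3 (1.72, edgeR adjusted p = 0.108). It was also not called without each Os1400 low-Pi library, and over the 6 cases its edgeR adjusted p was up to 0.156.

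The other 3 genes gave no call between the genotypes at low Pi. PHR2 had a log2 difference of 0.43 ± 0.40 (edgeR adjusted p = 0.608), with 2 of the 3 WT libraries near or within the Os1400 range of 28.0 to 31.9 FPKM. PHF1 had 0.69 ± 0.43 (edgeR adjusted p = 0.398), and 1.29 without WT low-Pi library 3 (edgeR adjusted p = 0.0243), in which it was at 81.7 FPKM. PHR3 had −1.32 ± 1.76 (edgeR adjusted p = 0.746), and −1.88 without WT low-Pi library 2 (edgeR adjusted p = 0.0642). In the WT libraries with counts, it was at 6.43 and 7.76 FPKM, above the 1.25 to 2.56 of Os1400.

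The Pi response itself differed between the genotypes for PHR1 and PHO2, by the interaction term of a fit to the 12 libraries. Both fell less in Os1400 than in WT. The Pi response of PHR1 was higher in Os1400 by 1.73 ± 0.28 on the log2 scale (edgeR adjusted p = 0.00279) and that of PHO2 by 1.89 ± 0.51 (edgeR adjusted p = 0.0319). These are 2 of 5 members, against 13.4% of the 28691 genes tested, and both were positive, as for 10.6% of the genes tested. The median interaction was 0.69 for the members and 0.38 for all genes tested. Of all genes called, 78.9% were positive with TMM scaling and 68.5% with upper-quartile scaling.

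PHR1 remained called with each of the 12 libraries left out, but not by limma-voom with library weights (adjusted p = 0.0852). PHO2 remained called only without 1 of the WT low-Pi libraries (log2 values of 1.51, 2.45 and 1.86), and the other 9 cases gave edgeR adjusted p of up to 0.0809. PHR2 had an interaction of 0.42 ± 0.43 (edgeR adjusted p = 0.601), PHF1 of 0.69 ± 0.46 (edgeR adjusted p = 0.377) and PHR3 of −1.46 ± 1.64 (edgeR adjusted p = 0.644). Without WT low-Pi library 3, that of PHF1 was 1.27 (edgeR adjusted p = 0.00452), and without WT low-Pi library 2, that of PHR3 was −2.05 (edgeR adjusted p = 0.0112). Calls for these genes thus depended on 1 library each.

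Ratios within a library do not depend on the scaling between libraries, and they are given as a description. The ratio of PHF1 to PHO2 FPKM, 2 genes that act on PHT1 transporters in opposite directions, was 0.225 to 0.256 in WT +Pi and 0.242 to 0.282 in Os1400 +Pi. At low Pi it was 5.39, 2.03 and 7.18 in WT and 1.94, 1.92 and 2.12 in Os1400. All low-Pi libraries lay above all +Pi libraries, and the range of Os1400 low-Pi met that of WT low-Pi only at library 2. The ratio of PHR2 to PHO2 was 0.212 to 0.300 over the 6 +Pi libraries, 1.496 to 2.71 in WT low-Pi and 0.705 to 1.004 in Os1400 low-Pi. At low Pi, the genotypes did not overlap in this ratio.

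The balance within the PHR family shifted as well. PHR1 was at 0.695 to 0.994 of the level of PHR2 in the 6 +Pi libraries. It was at 0.151 to 0.560 of it in WT low-Pi and 0.598 to 0.634 in Os1400 low-Pi. Every low-Pi library thus lay below every +Pi library. PHR3 was at 0.137 to 0.188 of the level of PHR2 at +Pi. In Os1400 low-Pi it was lower, at 0.0393 to 0.0889, whereas in WT low-Pi it was at 0.594, 0 and 0.251, with 2 libraries above the +Pi range and 1 without counts.

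**Figure D3:**
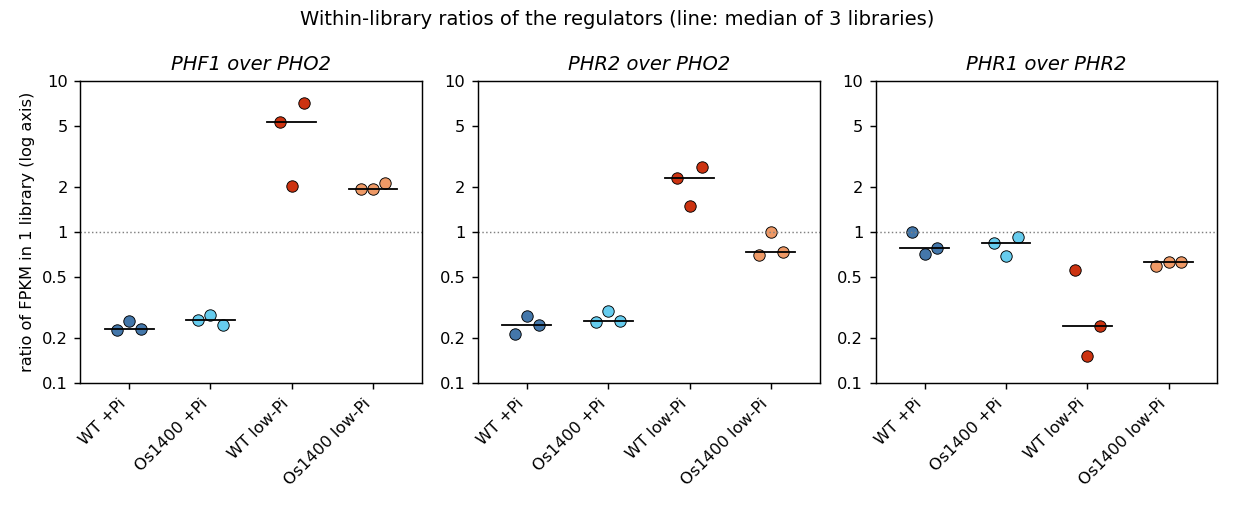
Ratio of the FPKM of 2 genes in each library (vertical log axis) by group, with a line at the median of 3 libraries. PHF1 over PHO2 lies between 0.225 and 0.282 in the +Pi libraries and between 1.92 and 7.18 in the low-Pi libraries.

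Other genes of the pathway were taken as whole lists. For comparison with the list counts, the Pi response was called for 23.7% of all genes tested in WT and 29.6% in Os1400. Between the genotypes, 0.958% were called at +Pi and 16.9% at low Pi, and the interaction was called for 13.4%. The MYB-CC family, to which the PHR genes belong, has 13 further genes in the files, and all were tested. None was called between the genotypes at either Pi supply. At low Pi against +Pi, 3 were higher and 2 lower in WT, and 5 were higher and 3 lower in Os1400. PHR4 (Os06g0703900), another activator of Pi starvation genes, rose from 15.2 ± 0.805 to 46.9 ± 20.9 FPKM in WT (log2 fold change 1.57 ± 0.35, edgeR adjusted p = 0.0208). In Os1400, it rose from 14.8 ± 2.86 to 37.8 ± 3.27 FPKM (1.45 ± 0.17, edgeR adjusted p = 0.000188). PHR4 thus moved in the direction opposite to PHR1. Os04g0665600, a family member without a name in the files, fell by more than PHR1 did, with log2 fold changes of −3.27 ± 0.55 in WT (edgeR adjusted p = 0.0134) and −3.72 ± 0.19 in Os1400 (edgeR adjusted p = 3.26e-06). The interaction was called for 1 of the 13, Os09g0299200 (−1.46 ± 0.37, edgeR adjusted p = 0.0222), a value of the opposite sign to that of PHR1. The list's median log2 fold change was 0.19 in WT and 0.57 in Os1400, against −0.28 and −0.00 for all genes tested.

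Of 15 genes with an SPX domain, the domain that binds PHR proteins, 11 or 12 passed the filter in each comparison. In WT, 4 were higher and 1 lower at low Pi, and in Os1400, 7 were higher and 1 lower. The SPX gene Os06g0603600 rose from 15.4 ± 2.84 to 652 ± 170 FPKM in WT and from 11.6 ± 3.51 to 165 ± 14.9 in Os1400. Os03g0406100 rose from 4.06 ± 1.21 to 1408 ± 591 FPKM in WT and from 4.05 ± 1.10 to 323 ± 42.9 in Os1400. The interaction of both was negative, −1.43 ± 0.33 (edgeR adjusted p = 0.0155) and −1.98 ± 0.45 (edgeR adjusted p = 0.0141). These SPX genes, like PHO2 and PHR1, thus had the smaller response in Os1400. Os02g0202200 went the other way, with a log2 fold change of 2.75 in WT and 6.52 in Os1400 and an interaction of 3.77 (edgeR adjusted p = 0.0476), from a level near 0 in Os1400 +Pi. The interaction was not called for Os10g0392600 (−0.07 ± 4.14, edgeR adjusted p = 0.987) or Os03g0827500 (−0.11 ± 0.35, edgeR adjusted p = 0.759). At +Pi, 1 SPX gene was called between the genotypes, Os02g0202200 (4.73 ± 1.65 FPKM in WT and 0.138 ± 0.202 in Os1400, log2 difference −5.08 ± 0.87, edgeR adjusted p = 0.0134). At low Pi, 2 SPX genes were higher and 3 lower in Os1400, and the interaction was positive for 2 and negative for 2.

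Of the 13 PHT1 transporter genes, whose proteins PHF1 and PHO2 act on, 6 to 8 passed the filter. In WT, 4 were higher at low Pi and none lower, and in Os1400, 5 were higher and none lower. PHT1;6 (Os08g0564000) rose from 1.90 ± 0.687 to 577 ± 75.2 FPKM in WT and from 2.77 ± 1.19 to 282 ± 57.5 in Os1400, and was lower in Os1400 than in WT at low Pi (log2 difference −0.96 ± 0.23, edgeR adjusted p = 0.0327). That is 1 of the 2 PHT1 genes called between the genotypes at low Pi, both lower in Os1400. No PHT1 gene was called at +Pi or for the interaction.

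Of 44 other genes of ubiquitin-conjugating enzymes, the family of PHO2, 38 or 39 passed the filter. In WT, 3 were higher and 3 lower at low Pi, and in Os1400, 5 were higher and 13 lower. Between the genotypes at low Pi, 1 was higher (log2 difference 0.74) and 7 lower in Os1400. The list's log2 differences ranged from −1.88 to 2.66 with a median of −0.39, and that of PHO2 was 1.74. The lowest log2 fold change of a listed gene in WT was −3.42, and that of PHO2 was −3.79. The 2.66 (SE 2.16) and the −3.42 (SE 2.08) came from the same gene, at 1.40 ± 2.42 FPKM in WT low-Pi. Neither value was called, and the lowest called value of the list in WT was −1.49.

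**Figure D4:**
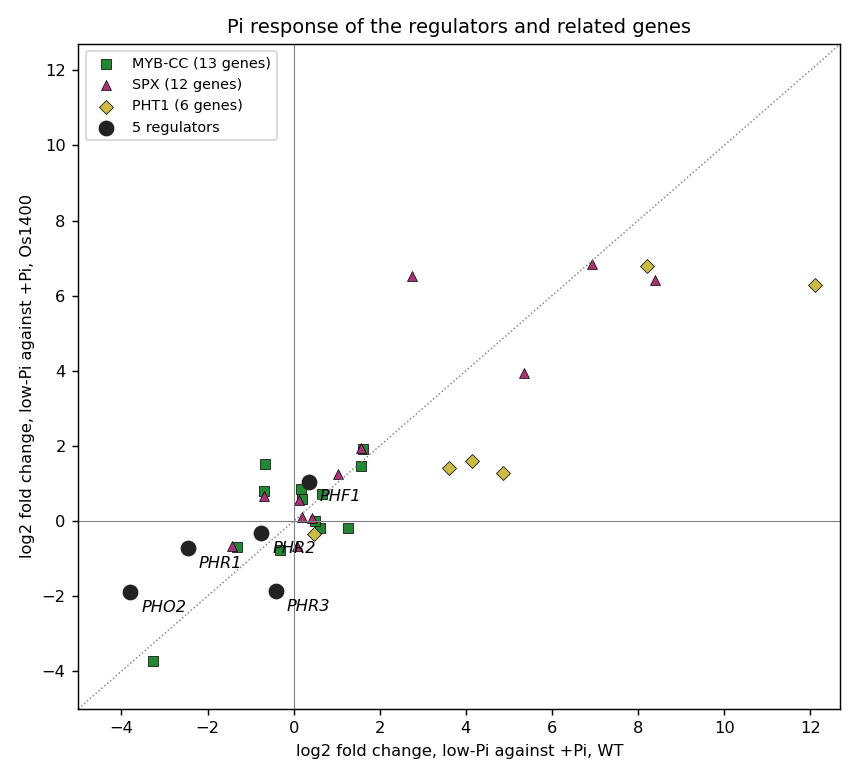
log2 fold change of low-Pi against +Pi in WT (horizontal axis) and in Os1400 (vertical axis) for the 5 regulators and the tested genes of 3 lists, with the dotted line at equal values. Fitted values of genes at or near 0 at +Pi, among them the PHT1 gene farthest to the right, depend on the prior count of the fit. PHO2 and PHR1 lie at −3.79 and −2.45 in WT and at −1.88 and −0.71 in Os1400, above the dotted line.

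Over the 12 libraries, the log2 CPM (counts scaled to the library size with TMM factors) of PHO2 had a Pearson correlation of 0.906 with that of PHR1, 0.826 with PHR2, 0.319 with PHR3 and −0.18 with PHF1. These are descriptions over 12 libraries of 4 groups, which share the Pi supply and the scaling. Among 23670 genes with a mean of 1 CPM or more, those most like PHO2 were Os06g0724100, with a FYVE zinc finger (0.994), and Os10g0390701, which has no description (0.993). PHR1 was most like Os01g0612600 (0.995) and Os07g0236200 (0.990), neither described in the files. PHR2 was most like Os10g0562500, with a protein kinase domain (0.992), and Os06g0676400 (0.991). PHF1 was most like Os04g0569900, with a calmodulin-binding motif (0.973), and Os03g0214400, with a glycosyl transferase domain (0.953). PHR3 was most like Os12g0191901 (0.995) and a transcript without a gene identifier that has an NB-ARC domain and resembles a disease resistance protein of Arabidopsis (0.989). PHR3 is 1 of the 334 genes at 0 in WT low-Pi library 2 alone. How far its correlations rest on that library was not tested.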

How the data were processed

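Total RNA of rice roots was sequenced, and the authors deposited unnormalized counts (a table for each Pi supply) and a table of FPKM for the 12 libraries. The submitters' processing notes name HISAT2 2.0.5, featureCounts 1.5.0-p3 and DESeq2. The genome build, the annotation release and the use of strand are not given in the sources used here. The deposited FPKM equal the counts divided by gene length and by a scaled library size, which was 0.734 to 1.11 of the total counts. The tables also hold the authors' fold changes and p-values for the genotype comparisons, which were not used, and 28 further columns of library values or means were left out. Libraries were assigned to groups by their labels.

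Genes were tested with edgeR 4.0.16 (TMM, filterByExpr with minimums of 10 and 15 counts, quasi-likelihood test, Benjamini-Hochberg adjustment over all genes tested) in R 4.3.3, on the 6 libraries of each comparison or, for the interaction, on all 12. Comparisons between Pi supplies used the 30742 genes in both count tables. Alternatives used DESeq2 1.42.0, limma 3.58.1 on FPKM with pseudocounts of 1 and 0.1, other scalings and filters, 1 fit of all libraries, a replicate block and each library left out. Library totals only and limma-voom with library weights were added after the data were seen. The edgeR, DESeq2 and limma-voom tests were checked on simulated data, and the other alternatives were not. The simulated counts had the same spread in every gene and library and no missing genes, unlike the WT low-Pi libraries. This check therefore cannot show how the tests perform with those libraries. Replicate counts differed by more than sampling noise (chi-square per gene 18.2 to 312), so every library was counted once. Counts are not numbers of independent molecules.

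The 5 genes, the lists and the rule for named genes were chosen with earlier results of these data known. Named are all members, for each member the 2 genes of highest correlation, and some of the list genes that the rule allowed. It allowed PHR4, the annotated SPX genes and the 2 called genes of smallest p in each direction of a comparison. No gene of ubiquitin-conjugating enzymes was to be named. Allowed genes left out above include Os08g0434700 (lower) and Os02g0700300 (higher) of the MYB-CC list, both called for the Pi response in WT.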

Additional observations from a re-analysis of the deposited data

Results flagged for a closer look

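Of the 5 regulators, 2 had a response to low Pi that differed between Os1400 and WT by the test of the difference itself, as did 13.4% of all genes tested (10.6% with a positive difference). The median difference over all genes was 0.38. The log2 fold change of PHR1 was −2.45 in WT and −0.71 in Os1400, a difference of 1.73 (edgeR adjusted p = 0.00279), and all 3 Os1400 low-Pi libraries lay above all 3 WT low-Pi libraries. The log2 fold change of PHO2 was −3.79 in WT and −1.88 in Os1400, a difference of 1.89 (edgeR adjusted p = 0.0319), again with no overlap between the genotypes at low Pi. The genotypes did not overlap at low Pi for 40.6% of the 25426 genes tested there. The call of PHR1 was lost in 1 of 22 alternatives, with library weights. That of PHO2 was lost in 10 of 22, namely the replicate block and 9 of the 12 cases with 1 library left out. In the WT low-Pi libraries, 1075, 334 and 197 genes were at 0 in 1 library alone, and the part of these missing genes in both differences was not tested.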

How the results depend on the processing

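Of the calls, those of PHR1 and PHO2 in WT and of PHO2 in Os1400 held in 17 of 17 alternatives. At +Pi, 0 members were called in every alternative run. At low Pi between the genotypes, 1 member was called, and 2 (PHR1 and PHO2) with library totals only, DESeq2, at least 10 counts in every library, limma on FPKM with either pseudocount, limma-voom with library weights, and 1 fit of all 12 libraries. With the replicate block it was 0. Leaving out 1 library gave 0 to 2. For the Pi response in Os1400, 4 members were called, 4 to 5 with 1 library left out, and 1 (PHO2) in the fit of all 12 libraries. PHR2, not called in the main test, was called in 4 of the 11 alternatives that left no library out. For the interaction, 2 were called, 1 (PHR1) with the replicate block, 1 (PHO2) with library weights, and 1 to 3 with 1 library left out. The cause of these shifts was not tested. Same-numbered libraries correlated at −0.0328 to 0.16 in their deviations, above 0.1 in 2 of 18 pairs. Libraries with other numbers correlated at −0.17 to 0.0592, above 0.1 in 0 of 36 pairs. The 2 high pairs joined WT low-Pi and Os1400 low-Pi, with number 2 (0.131) and number 3 (0.16). With number 1, the same groups gave 0.00077. Whether the numbers pair the samples at low Pi was not tested. In the block fit, the log2 difference of PHR1 at low Pi was 1.76 (edgeR adjusted p = 0.0707).

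Values changed sign as follows. At +Pi, PHR1 ranged from −0.032 (without WT +Pi library 2) to 0.12 with 1 library left out and was −0.02 without Os1400 +Pi library 3, and PHR2 ranged from −0.015 (without WT +Pi library 1) to 0.071. At low Pi between the genotypes, PHR3 was 0.070 with limma at a pseudocount of 0.1 and 1.75 with library weights, and its interaction was 1.62 with library weights. In WT, PHR3 ranged from −1.01 to 0.15 (without low-Pi library 2) and PHF1 from −0.28 (without low-Pi library 3) to 0.65. PHR3 could not be tested with at least 10 counts in every library where WT low-Pi library 2 enters.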
